A study of Mus musculus with 6 samples.

Results

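Prostaglandins are short-lived lipid signals made from arachidonic acid, and the 10 genes examined here make them, break them down, carry them into cells or bind them. They are *Ptgs1*, *Ptgs2*, *Ptges*, *Ptges2*, *Ptgis*, *Hpgd*, *Slco2a1*, *Ptger2*, *Ptger3* and *Ptger4*, taken by name from the 54167 genes in the deposited values. All 10 passed the expression filter, 1 TPM or more in 3 or more tumors, and were tested among 15117 genes. RNA was sequenced from 6 colorectal tumors, 3 from *Trp53fl/fl* mice and 3 from *VP* mice (*Pvillin-Cre* + *Trp53fl/fl*). TPM, a relative transcript abundance, are scaled for transcript length and to the same total in each tumor, so levels of different genes can be set side by side, but no read number is kept and the depth is unknown.

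Both genotypes were on the C57BL/6J strain and carried floxed *Trp53* alleles, and *VP* mice carried Cre in addition. Per the study's methods, 8-week-old male mice were injected with 10 mg/kg of the carcinogen azoxymethane (AOM). They were then given 7-day courses of 2.5% dextran sulfate sodium (DSS), an irritant that causes colitis. Tumors were taken on day 98. The villin promoter drives Cre in intestinal epithelium, so fibroblasts, muscle, vessels and immune cells in a *VP* tumor keep *Trp53*. The labels number the tumors as replicates and do not say that each came from its own mouse, so the p-values measure the spread between these samples. *Trp53* itself was at 99.3 to 147 TPM in *Trp53fl/fl* tumors and at 27.8 to 38.5 TPM in *VP* tumors.

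Arachidonic acid released from membranes is turned into prostaglandin H2 by the cyclooxygenases, of which *Ptgs1* is present in many resting tissues and *Ptgs2* is induced by growth factors and inflammatory cytokines. Terminal synthases then form prostaglandin E2, prostacyclin or other products, the carrier encoded by *Slco2a1* takes prostaglandins into cells, and the dehydrogenase encoded by *Hpgd* inactivates them there. In the colon, prostaglandin E2 acts through G protein-coupled receptors of the EP family. Cyclooxygenase inhibitors such as aspirin lower the risk of colorectal tumors, and loss of *Hpgd* in colorectal cancer has been studied as the opposite of *Ptgs2* induction.

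The sequences before the start sites of 3 of the genes are shown because the cyclooxygenase genes differed in how far they varied between tumors and because *Ptger4* was the one gene of the 10 whose genotypes did not overlap. They come from the RefSeq promoter table for GRCm38.p6, in which 9 of the 10 genes had an entry; *Ptgis* had none. Each runs 5′ to 3′ on the gene's strand from 100 bases before to 30 bases after the annotated start, and capitals mark matches to the motifs searched.
*Ptgs2*, chr1:150099931-150100060, plus strand: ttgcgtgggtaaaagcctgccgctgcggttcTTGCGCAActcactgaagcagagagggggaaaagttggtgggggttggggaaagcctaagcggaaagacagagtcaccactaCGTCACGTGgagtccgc
*Ptgs1*, chr2:36230326-36230455, plus strand: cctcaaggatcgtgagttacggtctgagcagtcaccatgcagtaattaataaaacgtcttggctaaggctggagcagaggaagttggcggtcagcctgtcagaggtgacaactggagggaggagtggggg
*Ptger4*, chr15:5244158-5244287, minus strand: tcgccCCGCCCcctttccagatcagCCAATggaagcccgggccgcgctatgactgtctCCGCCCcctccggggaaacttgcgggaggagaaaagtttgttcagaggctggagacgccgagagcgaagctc

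Motifs were searched on both strands in the whole windows of 250 bases before and 50 bases after the start. They were the TATA box (TATAAA), the cAMP response element (CRE) half-site (TGACG), the E-box (CACGTG), the CCAAT box (CCAAT), the GC box (GGGCGG), the palindromic C/EBP site (TTGCGCAA) and the p53 half-site. In *Ptgs2* the C/EBP letters begin at position -69 from the start, the CRE half-site, on the opposite strand, at 14, and the E-box, which overlaps it, at 17. Of 32851 promoter windows, 0.183% held the C/EBP letters, 20.8% the CRE half-site and 7.15% the E-box. In *Ptger4* the CCAAT letters begin at position -75 and the GC box letters shown, on the opposite strand, at -95 and -42; 37.4% of all windows held the former and 35.7% the latter. *Ptgs1* held no match. TATA letters, found in 13.6% of windows, occurred among these genes in *Hpgd*, beginning at position 5, after the start, and in *Slco2a1*, at -29. No window of the 9 held the p53 half-site, which 8.36% of all windows held. These matches describe letters in a window and not binding.

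None of the 10 genes differed between *Trp53fl/fl* and *VP* tumors after adjustment over all genes. The log2 fold changes, *VP* minus *Trp53fl/fl* on log2(TPM + 1), ran from -0.33 for *Ptger4* to 0.43 for *Ptger3*, and 7 genes lay above and 3 below 0. The signs of *Ptgs1*, *Ptges2* and *Hpgd* turned under another scaling. The median over the 10 was 0.14, beside -0.07 over all genes tested, and became -0.03 when the tumors were centred on epithelial genes, which moved the median over all genes to -0.23. It was 0.24 without *Trp53fl/fl* replicate 1, 0.05 without *Trp53fl/fl* replicate 2 and 0.07 without *Trp53fl/fl* replicate 3. The count of 0 at a limma adjusted p under 0.05 stands beside a background of 0.165%, 25 of 15117 genes. In *VP* tumors 12 of these had a higher and 13 a lower level. That split was 12 and 8 after median-of-ratios rescaling and 13 and 27 after epithelial centring. At an unadjusted p under 0.05, limma gave 1 of the 10 as lower and 0 as higher in *VP* tumors, with backgrounds of 8.0% and 4.51%. In 1 of the 10 the genotypes did not overlap, with *VP* lower, and in 0 with *VP* higher, where 13.3% and 6.03% of all genes did so. None of these counts stands far from its background.

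**Figure D1:**
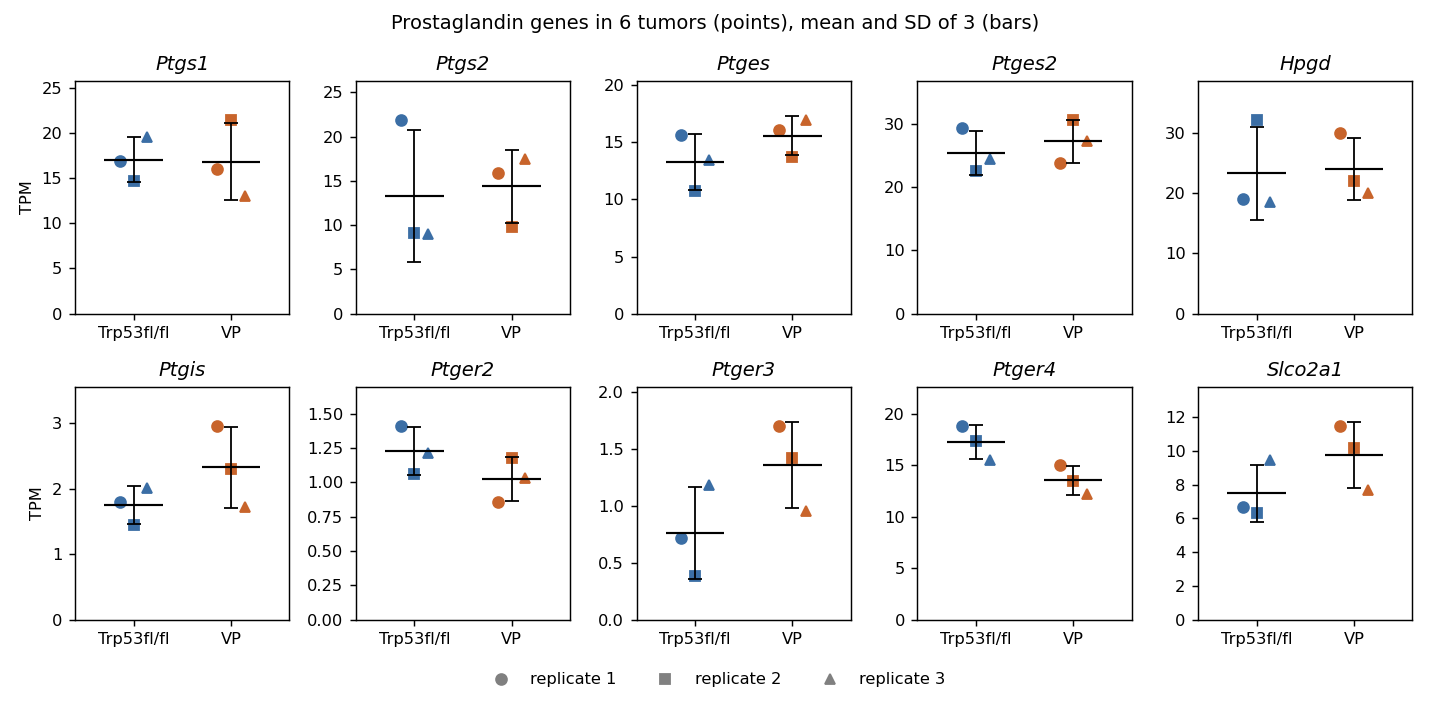
TPM (vertical axes, from 0) of the 10 prostaglandin genes in each of the 6 tumors, by genotype; symbols mark the replicate, the horizontal line the mean and the bar the SD of 3 tumors. The genotypes overlap in 9 panels, and in the *Ptger4* panel the *VP* tumors, at 12.2 to 15.0 TPM, lie below the *Trp53fl/fl* tumors, at 15.6 to 18.8 TPM.

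Averaged over the 6 tumors, the order of levels was *Ptges2* at 26.3 TPM, *Hpgd* at 23.6, *Ptgs1* at 16.9, *Ptger4* at 15.4, *Ptges* at 14.4, *Ptgs2* at 13.8, *Slco2a1* at 8.63, *Ptgis* at 2.04, *Ptger2* at 1.13 and *Ptger3* at 1.06 TPM. Neighbours in this order overlapped in their ranges over the tumors except *Slco2a1* with *Ptgis* and *Ptgis* with *Ptger2*, where the first was higher in 6 of 6 tumors. *Ptges2* had a mean above that of 65.2% of the genes tested and *Ptgs2* above that of 47.6%, while *Ptger2* and *Ptger3* were above 2.12% and 1.54% and so lay near the lower limit of the genes tested. In such bulk tissue, fewer cells of a type and less RNA per cell cannot be told apart.

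Among the cyclooxygenases, *Ptgs1* (ENSMUSG00000047250, chromosome 2 from 36230426 to 36252272; all gene positions are GRCm38, GENCODE M21) was at 16.8, 14.6 and 19.6 TPM in *Trp53fl/fl* tumors and at 16.0, 21.4 and 13.0 TPM in *VP* tumors. Both the highest and the lowest value were in *VP* tumors. The means were 17.0 ± 2.48 and 16.8 ± 4.27 TPM (SD, n = 3 each), and the difference on the log2 scale was -0.03 (SE 0.20, 95% interval -0.50 to 0.44, limma adjusted p = 0.958). Within each genotype the tumors had the same order for *Ptgs1* as for the summed level of 10 smooth muscle genes, a relation noticed after the values were seen. That sum was 755, 561 and 896 TPM in *Trp53fl/fl* tumors and 952, 1451 and 465 TPM in *VP* tumors, with none of the 10 genes at 0 in all tumors and 0 of 10 passing the adjusted test. The part of muscle cells in the level of *Ptgs1* was not tested.

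**Figure D2:**
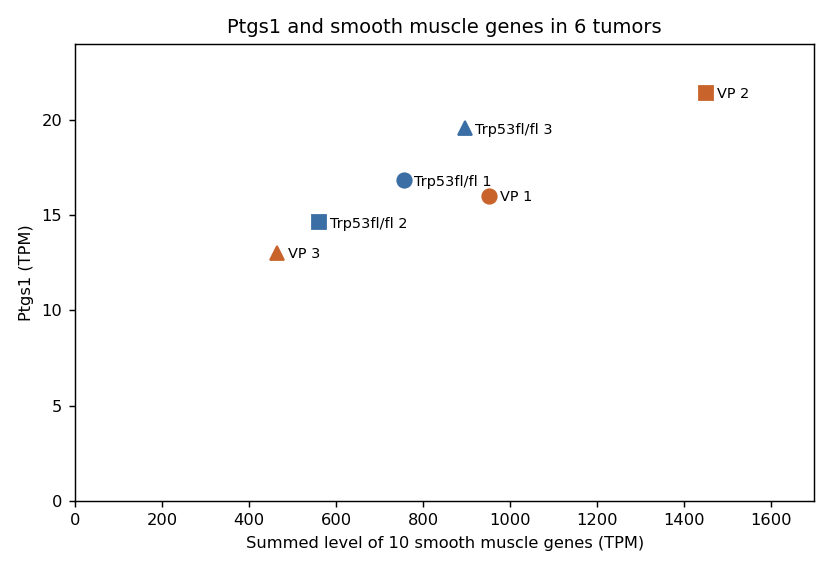
*Ptgs1* (vertical axis, TPM) against the summed TPM of 10 smooth muscle genes (horizontal axis) in the 6 tumors, each point a tumor, with genotype by color and replicate by symbol. *VP* replicate 2, with 1451 TPM of smooth muscle genes, has the highest *Ptgs1* at 21.4 TPM, and *VP* replicate 3, with 465 TPM, the lowest at 13.0 TPM.

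*Ptgs2* (ENSMUSG00000032487, chromosome 1 from 150100031 to 150108227), the inducible cyclooxygenase, was at 21.9, 9.08 and 8.96 TPM in *Trp53fl/fl* tumors and at 15.9, 9.74 and 17.4 TPM in *VP* tumors. *Trp53fl/fl* replicate 1 was the highest of all tumors, and the other *Trp53fl/fl* tumors and *VP* replicate 2 were the 3 lowest, so the *VP* tumors lay within the range of the *Trp53fl/fl* tumors. The means were 13.3 ± 7.43 and 14.4 ± 4.07 TPM (SD, n = 3 each), and the log2 fold change was 0.18 (SE 0.37, 95% interval -0.68 to 1.04, limma adjusted p = 0.848). The interval is the widest of the 10 and does not exclude a doubling in *VP* tumors. Without *Trp53fl/fl* replicate 1 the difference was 0.58, and without *Trp53fl/fl* replicate 3 it was -0.02, with no call in either case. *Ptgs2* varied 2.44-fold from the lowest to the highest tumor and *Ptgs1* 1.65-fold. Within a tumor, the ratio of *Ptgs2* to *Ptgs1* was 1.3, 0.621 and 0.458 in *Trp53fl/fl* tumors and 0.994, 0.454 and 1.34 in *VP* tumors. *Ptgs2* thus exceeded *Ptgs1* in 1 tumor of each genotype.

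*Ptges* (ENSMUSG00000050737, chromosome 2 from 30889471 to 30929863) encodes the inducible microsomal prostaglandin E synthase, which acts with the product of *Ptgs2*. Its levels were 15.6, 10.8 and 13.5 TPM in *Trp53fl/fl* tumors and 16.1, 13.7 and 17.0 TPM in *VP* tumors. *VP* was higher in 8 of the 9 pairs of tumors, and the ranges overlapped because *Trp53fl/fl* replicate 1 exceeded *VP* replicate 2. The means of 13.3 ± 2.43 and 15.6 ± 1.70 TPM (SD, n = 3 each) gave a log2 fold change of 0.22 (SE 0.17, 95% interval -0.17 to 0.61, limma adjusted p = 0.587). That difference was 0.09 without *Trp53fl/fl* replicate 2, 0.34 without *Trp53fl/fl* replicate 1 and 0.06 with epithelial centring. *Ptges2* (ENSMUSG00000026820, chromosome 2 from 32395896 to 32405772), named as a second microsomal prostaglandin E synthase, was at 29.3, 22.5 and 24.4 TPM in *Trp53fl/fl* tumors and at 23.8, 30.6 and 27.2 TPM in *VP* tumors. It was the steadiest of the 10, with the highest tumor 1.36-fold above the lowest, and its log2 fold change was 0.10 (95% interval -0.25 to 0.44, limma adjusted p = 0.796). The ratio of *Ptges* to *Ptges2* was between 0.446 and 0.674 in the 6 tumors, and both ends of that range were in *VP* tumors.

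*Ptgis* (ENSMUSG00000017969, chromosome 2 from 167191805 to 167240604) encodes prostacyclin synthase, an enzyme of vessel walls and smooth muscle. It was at 1.80, 1.45 and 2.02 TPM in *Trp53fl/fl* tumors and at 2.96, 2.30 and 1.72 TPM in *VP* tumors. *VP* replicates 1 and 2 were above all *Trp53fl/fl* tumors, and *VP* replicate 3 was within their range. The difference of 0.26 on the log2 scale (SE 0.21, 95% interval -0.23 to 0.75) did not pass the test (limma adjusted p = 0.616). It was 0.13 without *VP* replicate 1, 0.40 without *VP* replicate 3 and 0.10 with epithelial centring. Set beside the smooth muscle sums after the values were seen, the order of *Ptgis* was the same in *Trp53fl/fl* tumors, but in *VP* tumors replicate 1 had the highest *Ptgis* and replicate 2 the highest sum.

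Breakdown starts with *Hpgd* (ENSMUSG00000031613, chromosome 8 from 56294585 to 56321043), which encodes 15-hydroxyprostaglandin dehydrogenase. It was at 19.1, 32.1 and 18.6 TPM in *Trp53fl/fl* tumors and at 29.9, 22.0 and 20.1 TPM in *VP* tumors. In each genotype 1 tumor stood above the others, *Trp53fl/fl* replicate 2 and *VP* replicate 1. The means were 23.3 ± 7.69 and 23.98 ± 5.20 TPM (SD, n = 3 each), and the difference on the log2 scale was 0.07 (SE 0.24, 95% interval -0.51 to 0.64, limma adjusted p = 0.923). The ratio of *Ptgs2* to *Hpgd* was 1.15, 0.283 and 0.483 in *Trp53fl/fl* tumors and 0.533, 0.443 and 0.869 in *VP* tumors. It sets 1 transcript of synthesis beside 1 of breakdown, leaves out *Ptgs1*, and does not measure how much prostaglandin was made or lost. *Trp53fl/fl* replicate 1 was the only tumor in which *Ptgs2* exceeded *Hpgd*, and the highest and the lowest ratio were both in *Trp53fl/fl* tumors.

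*Slco2a1* (ENSMUSG00000032548, chromosome 9 from 102988712 to 103096002), the prostaglandin carrier found in endothelium among other cells, was at 6.67, 6.35 and 9.44 TPM in *Trp53fl/fl* tumors and at 11.5, 10.2 and 7.66 TPM in *VP* tumors. *VP* was higher in 8 of 9 pairs of tumors, the exception being *Trp53fl/fl* replicate 3 above *VP* replicate 3. The means were 7.49 ± 1.70 and 9.78 ± 1.94 TPM (SD, n = 3 each), and the log2 fold change of 0.35 (SE 0.21, 95% interval -0.14 to 0.83) did not pass the test (limma adjusted p = 0.509). With epithelial centring it was 0.18. The summed level of 10 endothelial genes was 129 to 167 TPM in *Trp53fl/fl* tumors and 153 to 161 TPM in *VP* tumors, with 9 of the 10 in the higher direction, 0 passing the adjusted test and none at 0 in all tumors. Their part in the level of *Slco2a1* was not tested. The ratio of *Hpgd* to *Slco2a1* ran from 1.97 to 5.06 in *Trp53fl/fl* tumors and from 2.16 to 2.62 in *VP* tumors.

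Of the prostaglandin E2 receptors, *Ptger4* (ENSMUSG00000039942, chromosome 15 from 5206661 to 5244187, minus strand), whose product EP4 raises cAMP, was at 18.8, 17.4 and 15.6 TPM in *Trp53fl/fl* tumors and at 15.0, 13.5 and 12.2 TPM in *VP* tumors. Every *VP* tumor was below every *Trp53fl/fl* tumor, although the highest *VP* and the lowest *Trp53fl/fl* tumor were close. The means were 17.3 ± 1.64 and 13.5 ± 1.43 TPM (SD, n = 3 each). The log2 fold change was -0.33 (SE 0.13, 95% interval -0.65 to -0.01) and did not pass the adjusted test (limma adjusted p = 0.388). It was the 1 gene of the 10 with an unadjusted limma p under 0.05. An exact two-sided permutation test gave p = 0.1, the smallest that 3 tumors against 3 allow. The difference stayed between -0.40 and -0.26 as each tumor was left out and between -0.49 and -0.24 under the other settings, with limma adjusted p-values from 0.126 to 0.720. *Ptger4* shares 82 exonic bases with *Ttc33* on the opposite strand. *Ttc33* had a mean of 20.4 TPM and differed by -0.11 on the log2 scale (limma adjusted p = 0.779). *Ptger4* also shares 1015 exonic bases with the processed pseudogene *Gm15937* on the opposite strand, which had a mean of 0.02 TPM. Reads in these shared bases cannot be told apart without strand.

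**Figure D3:**
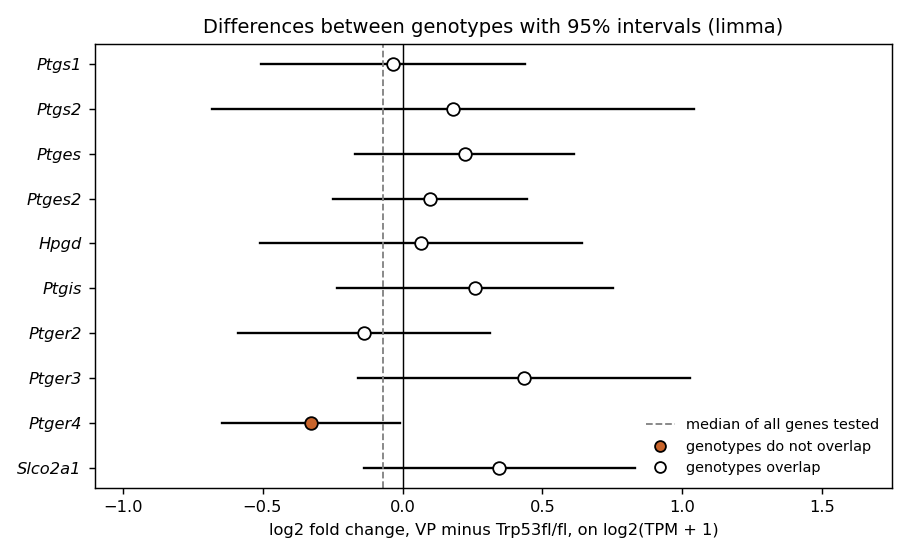
Log2 fold change of each of the 10 genes (horizontal axis, *VP* minus *Trp53fl/fl* on log2(TPM + 1)), with limma's 95% interval as a line, over 3 tumors of each genotype. Only the interval of *Ptger4*, -0.65 to -0.01, excludes 0, before adjustment over all genes; the dashed line is the median of all genes tested, -0.07.

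*Ptger2* (ENSMUSG00000037759, chromosome 14 from 44988195 to 45003820) encodes EP2, which also raises cAMP. It was at 1.41, 1.06 and 1.21 TPM in *Trp53fl/fl* tumors and at 0.86, 1.18 and 1.03 TPM in *VP* tumors. The ranges overlapped, with *VP* higher in 1 of 9 pairs, and the log2 fold change of -0.14 (SE 0.19, 95% interval -0.59 to 0.31) did not pass the test (limma adjusted p = 0.777). Without *Trp53fl/fl* replicate 1, or without *VP* replicate 1, it was -0.08, and with epithelial centring -0.30. *Ptger4* was 11.4 to 17.5 times as high as *Ptger2* within the 6 tumors, and both ends of that range were in *VP* tumors.

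*Ptger3* (ENSMUSG00000040016, chromosome 3 from 157566892 to 157645888) encodes EP3, which mainly lowers cAMP. It was at 0.72, 0.38 and 1.18 TPM in *Trp53fl/fl* tumors and at 1.70, 1.42 and 0.95 TPM in *VP* tumors. *VP* was higher in 8 of 9 pairs, with *VP* replicate 3 below *Trp53fl/fl* replicate 3. The log2 fold change of 0.43 (SE 0.25, 95% interval -0.16 to 1.03) was the largest of the 10 and did not pass the test (limma adjusted p = 0.501). With a pseudocount of 0.1 it was 0.84, since the added 1 TPM is as large as the gene's own level. Without *Trp53fl/fl* replicate 2, and also with epithelial centring, it was 0.27. The ratio of *Ptger3* to *Ptger4* was 0.0383, 0.0219 and 0.0759 in *Trp53fl/fl* tumors and 0.113, 0.105 and 0.0781 in *VP* tumors. These ratios did not overlap, but the nearest tumors were almost equal, and the ratio was looked at after the receptor levels were known, so no test was made of it.

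**Figure D4:**
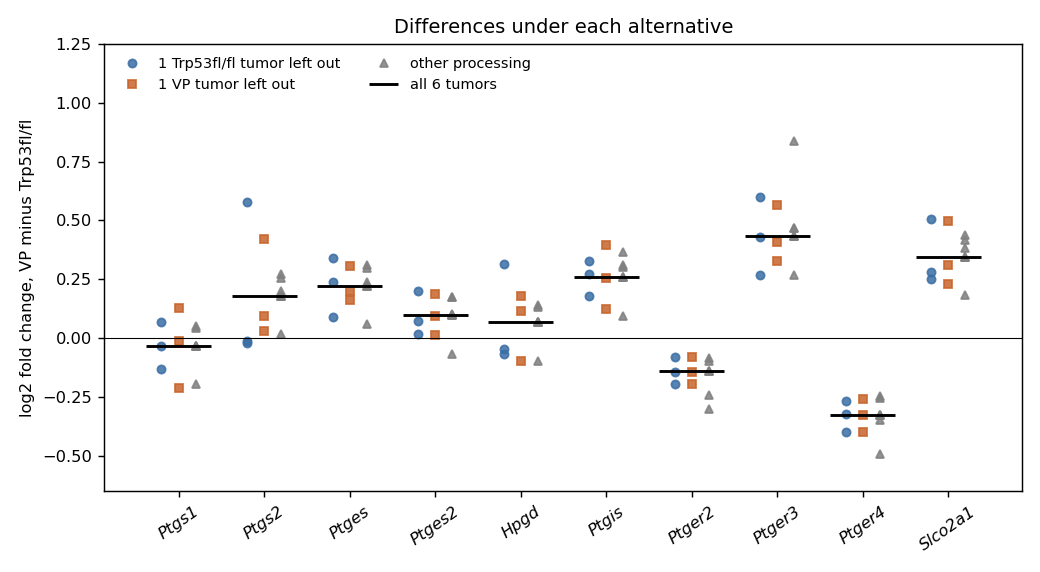
Log2 fold change of each of the 10 genes (vertical axis) with all 6 tumors (black line), with 1 tumor left out (circles and squares) and under other processing of the values (triangles). *Ptger4* stays below 0 throughout, between -0.49 and -0.24, while *Ptgs2* runs from -0.02 to 0.58 according to the tumor left out and *Ptger3* reaches 0.84.

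The genes whose centred log2(TPM + 1) came nearest to that of *Ptgs2* over the 6 tumors, by root mean square difference, were *Erp27* (0.172), *Gm45732* (0.190), *Tbpl1* (0.207), *D630033A02Rik* (0.212) and *H2bc11* (0.222), against an SD of 0.519 for *Ptgs2* itself. *Tbpl1*, for example, was at 49.5, 32.5 and 21.8 TPM in *Trp53fl/fl* tumors and at 41.2, 28.96 and 41.0 TPM in *VP* tumors. Nearest to *Hpgd* were *Slc10a5* (0.0512), *Prdx6* (0.0633), *Gm38699* (0.0750), *Ch25h* (0.0828) and *Slc25a24* (0.0946), against an SD of 0.329. *Prdx6*, a peroxiredoxin gene, was at 433, 691 and 385 TPM in *Trp53fl/fl* tumors and at 613, 510 and 423 TPM in *VP* tumors, with the same tumor highest in each genotype as for *Hpgd*. With 6 tumors and 15117 genes to choose from, such likeness is a description only.

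Around the 10 genes, no gene of 7 lists from the wider pathway passed the adjusted test. Of 7 other prostanoid synthesis enzymes tested, 1 had an unadjusted p under 0.05, lower in *VP* tumors, as did 8.0% of all genes. This was *Ptges3*, the cytosolic prostaglandin E synthase and Hsp90 co-chaperone p23, at 113, 110 and 82.3 TPM in *Trp53fl/fl* tumors and at 77.2, 76.4 and 67.3 TPM in *VP* tumors (log2 fold change -0.45, limma adjusted p = 0.328). In this 1 of the 7 the *VP* tumors were all lower, as for *Ptger4*, beside 13.3% of all genes. The list's other named genes were *Ptgds*, a prostaglandin D synthase (-0.26), *Akr1b3* (0.10) and *Tbxas1*, thromboxane synthase (0.02). The list median was 0.01 and ran from -0.12 to 0.08 as each tumor was left out.

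Among 18 genes of arachidonate release and supply, with a median of 0.05 that became -0.12 with epithelial centring, 10 were in the higher and 8 in the lower direction. The largest differences were those of the secreted phospholipases *Pla2g2e* (0.86, limma adjusted p = 0.466) and *Pla2g5* (0.59, adjusted p = 0.543) and, below 0, of the desaturase gene *Fads1* (-0.19) and *Pla2g12a* (-0.15). *Pla2g10*, named after its values were seen, was the one gene of the list with an unadjusted p under 0.05, higher in *VP* tumors, as were 4.51% of all genes. It was at 44.4, 48.1 and 53.1 TPM in *Trp53fl/fl* tumors and at 63.5, 63.6 and 78.7 TPM in *VP* tumors (log2 fold change 0.49, limma adjusted p = 0.280). In this 1 of the 18 the genotypes did not overlap, with *VP* higher, beside 6.03% of all genes. All 4 other genes of breakdown and export tested lay in the lower direction, with a median of -0.13 and none past an unadjusted p of 0.05. Of these the exporter gene *Abcc4* had -0.46 (limma adjusted p = 0.440) and *Ptgr2*, encoding a reductase that acts after *Hpgd*, -0.21. Of 7 genes listed with the other prostanoid receptors, 3 were tested and lay near the median of all genes. Among them were *Ptger1*, encoding EP1, at -0.11 and *Ptgfrn*, which encodes a regulator of a prostaglandin receptor and not a receptor, at -0.09.

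Arachidonic acid also feeds the lipoxygenases, and 13 of 18 genes of that branch were tested. Their median was 0.07, 3 of 13 had an unadjusted p under 0.05, all higher in *VP* tumors, and in 4 the genotypes did not overlap, beside 4.51% and 6.03% of all genes. The median was 0.31 without *Trp53fl/fl* replicate 3, 0.20 without *VP* replicate 1 and -0.09 with epithelial centring. *Alox5ap*, whose product presents arachidonic acid to 5-lipoxygenase, was at 17.7, 15.1 and 23.4 TPM in *Trp53fl/fl* tumors and at 55.5, 40.4 and 30.1 TPM in *VP* tumors (log2 fold change 1.10, limma adjusted p = 0.244). The 5-lipoxygenase gene itself, *Alox5*, overlapped, with means of 2.61 TPM in *Trp53fl/fl* and 2.46 TPM in *VP* tumors (-0.06, limma adjusted p = 0.891). The leukotriene synthesis genes *Lta4h* (-0.10) and *Mgst2* (0.05) overlapped as well. These 3 were named after their values were seen. *Fpr2*, a receptor for lipoxin and formyl peptides on myeloid cells, had 1.23 (adjusted p = 0.303), and *Alox12e*, named after its values were seen, 1.01 (adjusted p = 0.269). The fourth gene without overlap, also named after its values were seen, was *Dpep2* (0.33, limma adjusted p = 0.450). *Alox15* (-0.60) and *Ggt5* (-0.17) were the lowest. The summed level of 12 neutrophil genes was 377 to 711 TPM in *Trp53fl/fl* tumors and 1200 to 2042 TPM in *VP* tumors, with 12 of 12 in the higher direction. In 10 of the 12 the genotypes did not overlap, with *VP* higher, beside 6.03% of all genes. *Ly6g* (0.21) and *Csf3r* (0.07) overlapped, and *S100a8* and *S100a9* had the highest levels of the 12 in each *VP* tumor. The 1 gene of the 12 that passed the adjusted test was *Ngp*, at 0.81, 0.21 and 0.62 TPM against 48.4, 18.2 and 32.1 TPM (limma adjusted p = 0.00804). *Camp*, named after its values were seen, was listed at 0 in the *Trp53fl/fl* tumors. The part of neutrophils in the levels of *Alox5ap* and *Fpr2* was not tested.

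Of 15 genes that induce *Ptgs2* or relay that induction, 11 were in the higher direction and the median was 0.44. For 6 of the 15 the *VP* tumors were all above the *Trp53fl/fl* tumors with an unadjusted p under 0.05, where 6.03% of all genes were so separated and 4.51% had such a p. The largest were *Il6*, at 1.70, 0.48 and 0.23 TPM against 6.13, 4.57 and 4.46 TPM (log2 fold change 1.82, limma adjusted p = 0.124), and *Osm*, at 3.25, 2.08 and 3.41 TPM against 6.92, 7.78 and 9.38 TPM (1.22, adjusted p = 0.114). The others, named after their values were seen, were *Il1a* (1.01), *Tnf* (0.85), *Il1rn* (0.73), which encodes the interleukin-1 receptor antagonist and so opposes the induction, and *Myd88* (0.44). *Nfkb1* (-0.07) and *Hif1a* (-0.06) were the lowest of the list. *Ptgs2* did not separate the genotypes, with *Trp53fl/fl* replicate 1 at 21.9 TPM above every *VP* tumor. Nor did the rest of the 15 genes, and the 6 were singled out because they separated. Whether the difference of *Ptgs2* departs from those of the list was not tested. The neutrophil sums given above moved in the same direction as the 6 genes, and the part of neutrophils was not tested.

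Because EP2 and EP4 raise cAMP, 13 genes listed as cAMP-responsive were also read. Whether either receptor acts on them in these tumors was not tested. Their median was 0.34, with 3 higher and 1 lower at an unadjusted limma p under 0.05, beside 4.51% and 8.0% of all genes. The median was 0.20 without *VP* replicate 1, 0.55 without *VP* replicate 3 and 0.18 with epithelial centring. *Ereg*, which encodes the EGF receptor ligand epiregulin, was at 27.7, 9.32 and 5.90 TPM in *Trp53fl/fl* tumors and at 25.1, 13.98 and 25.0 TPM in *VP* tumors (log2 fold change 0.77, limma adjusted p = 0.546). The 3 tumors highest in *Ereg* were also the 3 highest in *Ptgs2*, which was noticed after the values were seen. The immediate-early genes *Fos* (0.62, limma adjusted p = 0.366) and *Fosb* (-0.74, adjusted p = 0.378) lay on opposite sides of 0, and *Nr4a2* had -0.49. *Pde4b*, encoding a phosphodiesterase that removes cAMP and named after its values were seen, was at 9.56, 10.4 and 9.68 TPM in *Trp53fl/fl* tumors and at 14.5, 15.3 and 15.9 TPM in *VP* tumors (0.58, adjusted p = 0.192). It was higher in every *VP* tumor, as was *Nr4a1* (0.59, adjusted p = 0.278), also named after its values were seen. In these 2 of the 13 genes the genotypes did not overlap, with *VP* higher, beside 6.03% of all genes. The 4 genes with an unadjusted p under 0.05 were *Fos*, *Nr4a1* and *Pde4b*, higher, and *Fosb*, lower.

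**Figure D5:**
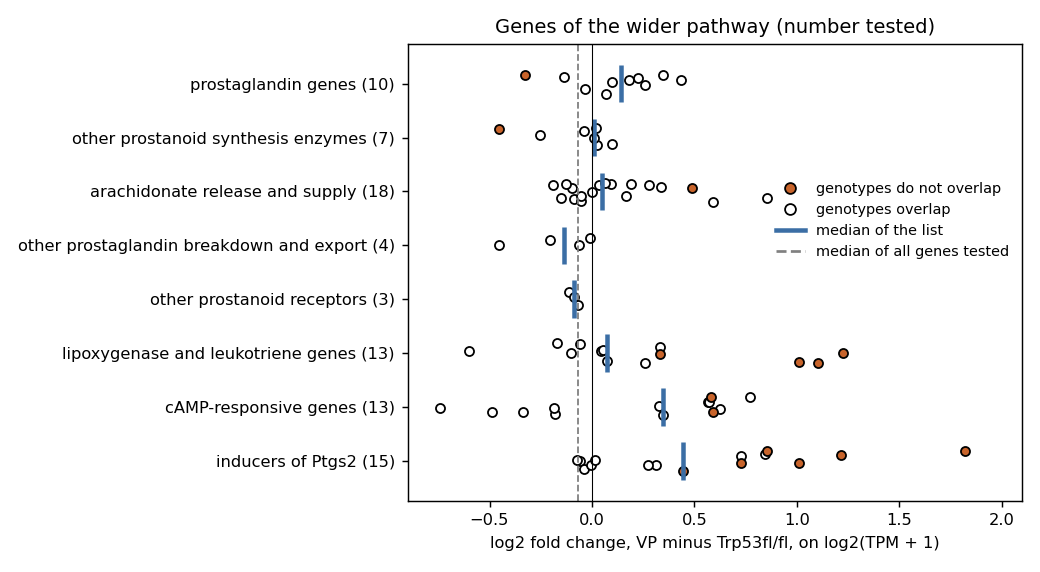
Log2 fold change (horizontal axis, *VP* minus *Trp53fl/fl* on log2(TPM + 1)) of each gene tested in the 10 prostaglandin genes and 7 wider lists, with the number tested in parentheses; filled points are genes whose genotypes do not overlap, and blue lines are list medians. The list of inducers of *Ptgs2*, which holds the antagonist gene *Il1rn*, has a median of 0.44 and reaches 1.82. *Ptgs2*, among the prostaglandin genes, is at 0.18, and no test was made between it and the list.

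Among the cell types the tissue can hold, the summed level of 12 epithelial genes was 11359 to 11872 TPM in *Trp53fl/fl* tumors and 12840 to 13912 TPM in *VP* tumors, with 0 of 12 passing the adjusted test and none at 0 in all tumors. These sums did not overlap. In 3 of the 12 genes the genotypes did not overlap, with *VP* higher, beside 6.03% of all genes. They were *Cldn7* (log2 fold change 0.37), *Krt19* (0.39) and *Lgals4* (0.47), named after their values were seen. The rest of the 12 overlapped, and *Epcam* (0.003), *Cdh1* (0.02) and *Krt18* (0.004) were near 0. The sum therefore need not measure the amount of epithelium, and neither need the centring on these genes. Fibroblast, macrophage, smooth muscle, endothelial, tuft cell, mast cell, T cell, B and plasma cell, goblet cell, colonocyte and enteric nerve sums overlapped between the genotypes, and no gene of those lists passed the adjusted test. Sums rest most on abundant genes and can hide others. In 3 of 10 fibroblast genes, *Pdgfra* (-0.56), *Lum* (-0.57) and *Dpt* (-0.52), *VP* was lower without overlap, beside 13.3% of all genes. In 2 of 9 macrophage genes, *Cd68* (0.53) and *Cd14* (0.79), *VP* was higher without overlap, beside 6.03%. The other fibroblast and macrophage genes overlapped. In *VP* tumors *Car1* (-0.94), 1 of 8 colonocyte genes, and *Clca1* (-1.54), 1 of 8 goblet cell genes, were lower without overlap. So were *Il17rb* (-0.59), 1 of 5 tuft cell genes tested, and *Cd3g* (-0.57), 1 of 5 T cell genes tested, beside 13.3%. *Cyp2c55* (1.28) of the colonocyte list and *Sh2d6* (0.55) of the tuft cell list were higher without overlap, beside 6.03%. The other tested genes of these lists overlapped. The part of epithelial content in the level of *Ptger4* was not tested; centred on the epithelial genes, its difference was -0.49 (limma adjusted p = 0.126).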

How the data were processed

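Per the submitters' processing notes, HISAT2, StringTie and the mm9 build were used; tool versions, annotation and strand setting are not given in the sources used here. The authors made paired-end libraries of poly(A) RNA and deposited a TPM value for every gene in each of the 6 samples; whether a sample pools material from several tumors or mice is not stated. Because TPM hold no counts, neither depth nor counting error can be given.

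Genes with 1 TPM or more in 3 or more tumors were transformed to log2(TPM + 1) and fitted with limma 3.58.1 in R 4.3.3 (empirical Bayes with trend, two-sided, Benjamini-Hochberg adjustment over 15117 genes, threshold 0.05). Single genes were compared by an exact permutation test over 20 assignments. Lists are described by counts and medians. The members and lists were chosen with earlier results of these data known. Named from each list were genes past the adjusted threshold, otherwise up to 2 with the largest positive and 2 with the largest negative difference; the 5 genes nearest to *Ptgs2* and to *Hpgd* were also named. Coordinates came from GENCODE M21 (GRCm38), which holds 96.2% of the gene IDs; the deposited values carry none. Alternatives were a pseudocount of 0.1, no filter, quantile normalization, median-of-ratios rescaling, centring on 12 epithelial genes, the replicate number as a block, no trend, and leaving out each tumor.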

Additional observations from a re-analysis of the deposited data

How the results depend on the processing

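None of the 10 prostaglandin genes passed the adjusted test under any of the alternatives run, and *Ptges*, *Ptgis*, *Ptger2*, *Ptger3*, *Ptger4* and *Slco2a1* kept their direction under all of them. The log2 fold change of *Ptgs1* turned to 0.0412 after median-of-ratios rescaling and to 0.0497 after quantile normalization, and ran from -0.21 to 0.13 as each tumor was left out. That of *Ptgs2* ran from -0.0218 to 0.578 and that of *Hpgd* from -0.10 to 0.31 over the same omissions. Epithelial centring turned *Ptges2* to -0.0674, *Hpgd* to -0.0977 and the median over the 10 genes to -0.0255. Over all genes, 25 calls became 7 without the filter, 40 with epithelial centring, 10 with the replicate block and 6 to 28 as each tumor was left out. The cause was not tested. Same-numbered tumors did not deviate together (correlations 0.02, -0.05 and 0.02), so the replicate block pairs tumors by number alone, and it gave 0 calls among the 10 genes. Depth cannot be read from TPM, and levels near 1 TPM, as for *Ptger2* and *Ptger3*, depend most on the pseudocount.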

Other observations

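*Pla2g2a*, which encodes a secreted phospholipase A2 that can release arachidonic acid, was the most abundant of the arachidonate genes named here, at 570, 391 and 403 TPM in *Trp53fl/fl* tumors and at 740, 209 and 516 TPM in *VP* tumors. Both extremes were in *VP* tumors, and the difference, -0.06 on the log2 scale, did not pass (limma adjusted p = 0.967). The C57BL/6 strain is known for a frameshift allele of this gene, and TPM per gene do not show which allele was transcribed. *Pla2g2a* was picked after its values were seen.

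*Il1b*, an inducer of *Ptgs2*, was at 51.4, 37.0 and 63.6 TPM in *Trp53fl/fl* tumors and at 39.1, 136 and 134 TPM in *VP* tumors (log2 fold change 0.84, limma adjusted p = 0.494), also picked after its values were seen. *VP* replicates 2 and 3 were nearly equal in *Il1b*, and their *Ptgs2* was at 9.74 and 17.4 TPM.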
